A study of Drosophila melanogaster with 3 samples.

Results

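The vacuolar ATPase genes of Drosophila melanogaster were taken as all protein-coding genes whose symbol starts with Vha in the RefSeq annotation of dm6, which gave 33 of the 13944 protein-coding genes on the chromosome arms. They encode 13 kinds of subunit and 1 kind of accessory protein, with 13 genes for the V1 sector, 18 for the V0 sector and 2 for accessory proteins. Of these, 14 were classed as widely used, meaning the sole gene of a subunit or the paralog known as its main one. Another 13 were classed as testis-type or tissue-restricted paralogs, and 6 were placed in neither class. The classes came from general knowledge of the genes, since no expression was measured here. They were chosen with earlier results of these data known. VhaM8.9 carries the symbol ATP6AP2 in this annotation, so it is not one of the 33 and is described apart.

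The peaks came from chromatin immunoprecipitation and sequencing (ChIP-seq) of CG14710, from a transgenic fly line that stably carries CG14710 with GFP fused to its C-terminus, pulled down with an antibody against GFP. The material was whole embryos of both sexes aged 0 to 14 hours, sonicated to 200 to 800 bp, in 3 biological replicates of 1 group. An untagged or other control group was not analysed here. Each list gives the authors' signal value for each peak, on a scale that is not stated, so that a peak's rank within its own list (1 being the highest signal) is the measure compared between lists. A gene was called bound when the summit of a peak lay within 500 bp of 1 of its transcription start sites (TSSs) in the list filtered by the authors on the irreproducible discovery rate (IDR), which holds 9194 peaks with signals of 262.5 and above. The replicate lists and the pooled list hold 30000 peaks each, and a gene without a summit there was read as not among the 30000. At every bound Vha gene the IDR peak had the same signal and rank as in the pooled list. The pooled list is therefore not a separate reading beside the IDR list. Read depth per sample is unknown, because the lists hold no read counts. Whole embryos mix many tissues, so that binding in few cells and weak binding in many cells cannot be told apart.

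The vacuolar ATPase is a rotary proton pump in the membranes of lysosomes, endosomes and the Golgi, and in the plasma membrane of some epithelial cells. Its cytosolic V1 sector hydrolyses ATP on alternating A and B subunits and turns a central stalk, which spins a ring of proteolipids in the V0 sector and so carries protons past the a subunit. Flies have several paralogs for many of the subunits, some of them used mainly in the testis or in other particular tissues. CG14710 encodes a zinc finger protein of the ZAD family.

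The promoter sequences of 5 genes show the range of the data, in dm6 coordinates and each from 170 bases upstream of the TSS to 19 bases downstream, 5′ to 3′ along the gene. Vha26 and Vha68-2 had the strongest peaks among the members. Vha100-1 was the strongest bound gene of the restricted class, Vha55 held a ZIPIC element close to the summit, and Vha68-3, the neighbour of Vha68-2, had no peak. Capitals mark matches, on either strand, to core promoter motif 1 (GGTCACACT), core promoter motif 6 (GGTATTTT), the DNA replication-related element DRE (TATCGATA), the ZIPIC motif (CAGGGCTG) and the 6-mer ACACTG, which overlaps the end of motif 1 when a G follows. Of these, Vha26 and Vha100-1 show motif 1 right at the TSS.
Vha26, chr3R:5591593-5591782, plus strand: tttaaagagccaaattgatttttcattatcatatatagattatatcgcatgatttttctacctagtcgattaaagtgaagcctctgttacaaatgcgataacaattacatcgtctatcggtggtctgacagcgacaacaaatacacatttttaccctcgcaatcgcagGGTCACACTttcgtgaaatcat
Vha68-2, chr2L:12974152-12974341, plus strand: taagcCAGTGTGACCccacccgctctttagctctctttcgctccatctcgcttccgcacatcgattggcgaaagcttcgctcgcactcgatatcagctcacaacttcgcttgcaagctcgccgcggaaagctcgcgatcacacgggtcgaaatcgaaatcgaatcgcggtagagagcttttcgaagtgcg
Vha100-1, chr3R:29131023-29131212, plus strand: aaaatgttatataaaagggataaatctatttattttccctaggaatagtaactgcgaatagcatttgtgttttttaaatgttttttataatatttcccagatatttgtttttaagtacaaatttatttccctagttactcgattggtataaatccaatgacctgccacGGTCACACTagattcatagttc
Vha55, chr3R:12627810-12627999, minus strand: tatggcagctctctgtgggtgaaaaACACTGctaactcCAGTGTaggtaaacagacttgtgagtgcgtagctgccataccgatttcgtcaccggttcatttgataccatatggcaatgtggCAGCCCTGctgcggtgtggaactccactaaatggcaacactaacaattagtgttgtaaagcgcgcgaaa
Vha68-3, chr2L:12978616-12978805, plus strand: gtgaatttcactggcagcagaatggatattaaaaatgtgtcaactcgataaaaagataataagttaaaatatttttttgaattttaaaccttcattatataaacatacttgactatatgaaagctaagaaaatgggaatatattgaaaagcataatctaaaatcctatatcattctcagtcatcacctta

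CG14710-GFP peaks lay at the promoters of nearly all widely used pump genes and of few restricted paralogs. In the IDR list, 18 of the 33 Vha genes were bound (54.55%, 95% Wilson interval 37.99 to 70.16), against 42.6% of all protein-coding genes, a value inside that interval. Among the widely used genes 13 of 14 were bound (92.86%, 68.53 to 98.73), the exception being VhaAC39-1. Among the restricted paralogs 2 of 13 were bound (15.38%, 4.33 to 42.23), namely Vha100-1 and Vha16-5. Of the 6 genes of neither class, Vha68-1, VhaM9.7-a and VhaM9.7-c were bound. The intervals cover counting error only, and no test was run on these shares.

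The same order was present in each replicate by itself. All 14 widely used genes had a promoter summit in the list of replicate 1, of replicate 2 and of replicate 3, where 55.4%, 55.3% and 55% of all protein-coding genes had one. The restricted paralogs had a summit in 4, 5 and 5 of 13 cases, and all 33 members in 22, 23 and 22 cases. In the pooled list, where 55.1% of all protein-coding genes had a promoter summit, 14 of 14 widely used and 4 of 13 restricted genes had one. Across the replicate lists 20 members had a summit in all of them, and 8 members had none in any of the 5 lists. Those 8 were Vha100-3, Vha100-5, Vha14-2, Vha16-4, Vha36-2 and Vha68-3 of the restricted class, and Vha36-3 and VhaM9.7-d of neither class.

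**Figure D1:**
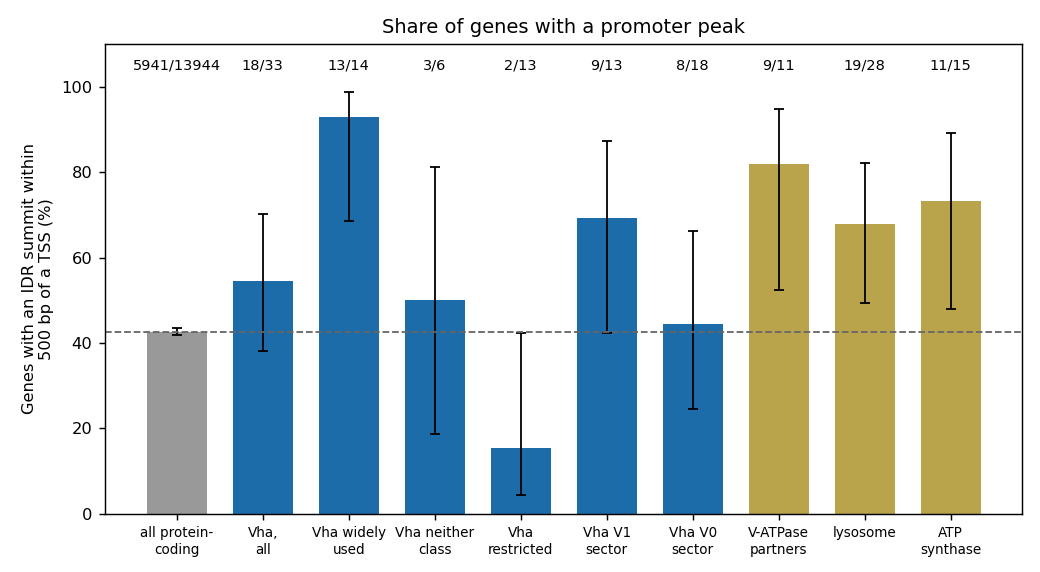
Share of bound genes, that is with a promoter summit in the IDR list, in percent, for all protein-coding genes (dashed line), the Vha genes by class and by sector, and 3 other gene lists. Bars give the share, error bars the 95% Wilson interval, and the counts over the bars the genes bound of the genes in the list. The widely used genes stand at 13 of 14 and the restricted paralogs at 2 of 13.

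By sector, 9 of 13 V1 genes (69.23%, 42.37 to 87.32) and 8 of 18 V0 genes (44.44%, 24.56 to 66.28) were bound, and these intervals overlap. V0 holds more restricted paralogs than V1, 10 against 3. Of the widely used genes, 8 of 8 in V1 and 4 of 5 in V0 were bound, and of the restricted ones 0 of 3 in V1 and 2 of 10 in V0.

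The peaks of bound members were somewhat higher in rank than those of other bound genes. The median IDR rank of the 18 was 2127.5, with a median signal of 940.2, against 3075 and 745.0 over all 5941 bound genes. As percentiles of the list (100 being the strongest peak), the medians were 91.62, 93.54 and 93.11 in replicates 1, 2 and 3 for the bound members, against 88.8, 90.3 and 89.55 for all bound genes. Ranks of the 18 members went together between replicates, with Spearman's rho of 0.872 for replicates 1 and 2, 0.862 for 1 and 3, and 0.891 for 2 and 3. The points are genes sharing the same libraries, so no p is given. The 18 were also chosen by the IDR list, which was made from these same replicates, so part of this agreement was selected for.

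Among the V1 genes, those of the A subunit ran from a peak among the strongest of each list to no peak at all. Vha68-2, the main gene for the ATP-hydrolysing A subunit, had signals of 3060.4, 1932.4 and 2649.5 in replicates 1, 2 and 3, at ranks 86, 95 and 96 of 30000. Its pooled signal was 7563.9 at rank 91, with the summit 126 bp upstream of the TSS. All 3 replicates thus placed it among their 100 strongest peaks, at a mean percentile of 99.7 ± 0.018 (SD, n = 3).

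Vha68-1, another A subunit gene, had signals of 330.4, 267.1 and 713.5 at ranks 2202, 1720 and 755. Its mean percentile was 94.81 ± 2.456 (SD, n = 3), below that of Vha68-2 in every replicate. Vha68-3, the restricted A subunit gene, had no summit in any list, and its nearest IDR summit was 3530 bp away. Vha55, the sole gene for the nucleotide-binding B subunit, had signals of 544.2, 380.9 and 457.2 at ranks 872, 806 and 1661, for a mean percentile of 96.29 ± 1.586 (SD, n = 3).

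The peripheral stalk, which holds the head still while the rotor turns, had the strongest peak of all members at its E gene and a weak, uneven one at its G gene. Vha26, the E subunit gene, had signals of 3624.6, 3196.1 and 4327.4 at ranks 79, 81 and 77, the highest of any member in each replicate, and a mean percentile of 99.74 ± 0.007 (SD, n = 3). Its pooled signal was 11104.9 at rank 79, with the summit 117 bp upstream of the TSS. Vha13, the G subunit gene that pairs with it, had signals of 79.6, 48.8 and 299.6 at ranks 11460, 12718 and 3100.

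Replicate 3 thus stood well above the others at Vha13, whose mean percentile of 69.69 ± 17.426 (SD, n = 3) had the widest spread of any member present in all 3 lists. Its summits lay 336 bp upstream, 124 bp downstream and 298 bp upstream of the TSS in replicates 1, 2 and 3, so the replicates did not mark a single position there. A further IDR summit lay 1306 bp downstream of the Vha13 TSS, with a signal of 291.9, at the TSS of subdued, a chloride channel gene.

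Vha44 encodes subunit C, which joins the peripheral stalk to V0 and is released when the pump comes apart. It had signals of 279.1, 278.1 and 385.2 at ranks 2896, 1586 and 2184, with a mean percentile of 92.6 ± 2.186 (SD, n = 3). Its peak interval held 2 summits, and the higher one lay 44 and 46 bp upstream of the TSS in replicates 1 and 2 but 238 bp downstream in replicate 3 and 274 bp downstream in the IDR list. VhaSFD, the gene for the regulatory H subunit, had signals of 233.4, 184.4 and 240.0 and a mean percentile of 87.66 ± 1.418 (SD, n = 3).

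The central stalk genes were bound at IDR ranks of 4244 (Vha36-1) and 8189 (Vha14-1), with Vha13 of the peripheral stalk between them at 6084. Vha36-1, the main D subunit gene, had signals of 253.6, 139.3 and 180.7 at ranks 3338, 4760 and 5610. Vha14-1, the main F subunit gene, had signals of 132.6, 41.1 and 132.7 at ranks 7278, 14565 and 7493. Replicate 2 was the low one for Vha14-1, and its IDR signal of 304.4 was the lowest of the 18 bound members. The other genes of these subunits, Vha36-2, Vha36-3 and Vha14-2, had no summit in any list, and their nearest IDR summits were 56139, 1722 and 48312 bp away.

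**Figure D2:**
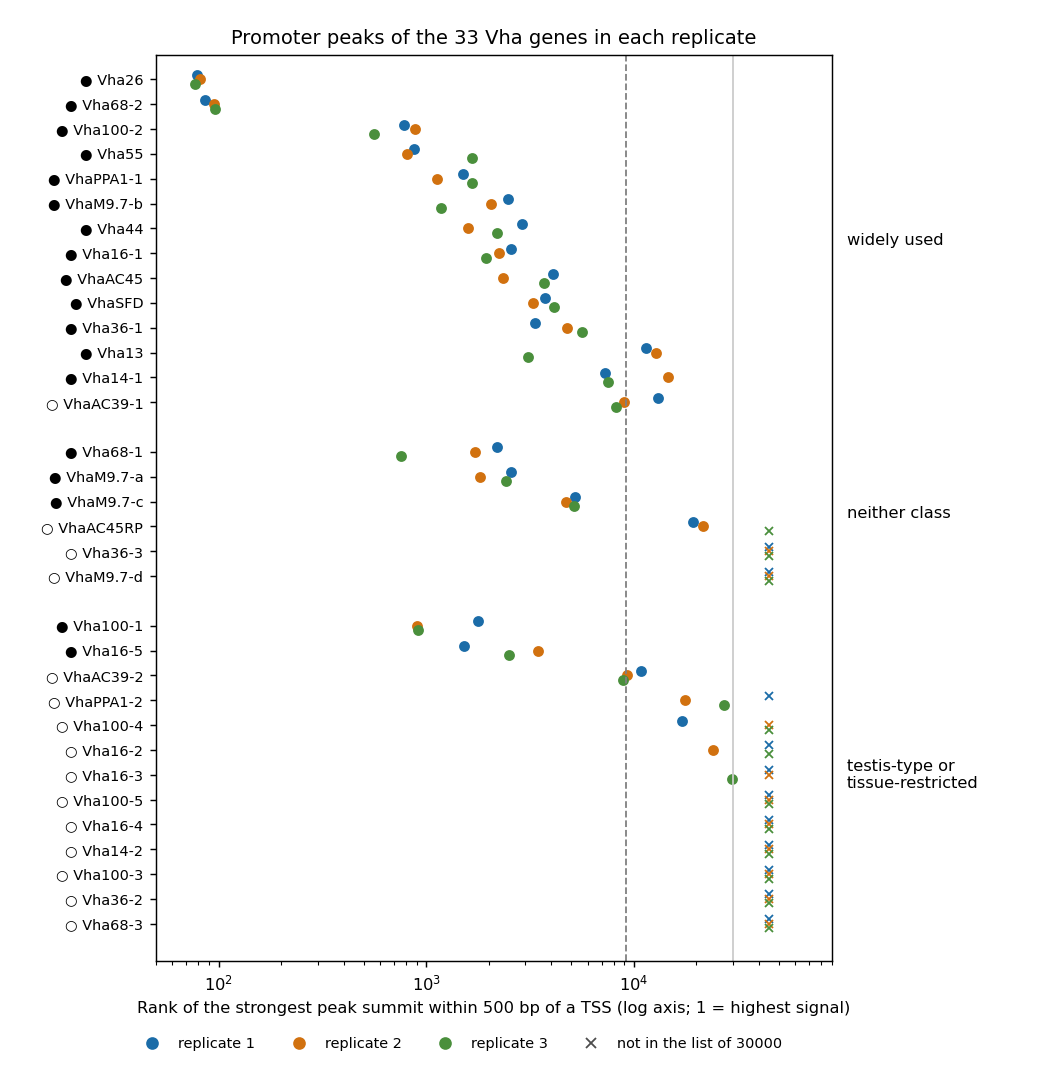
Rank of the strongest peak summit within 500 bp of a TSS (log axis, 1 being the highest signal) for each of the 33 Vha genes in replicates 1, 2 and 3, by class; filled circles before a name mark genes bound in the IDR list, crosses mark genes not among the 30000 peaks, and the dashed line stands at rank 9194. Vha26 and Vha68-2 lie at ranks 77 to 96 in all replicates, while most restricted paralogs have crosses.

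Among the V0 genes, the a subunit family was bound at 2 of 5 genes. This subunit holds the proton half-channels and directs the pump to its membrane. Vha100-2 had signals of 575.3, 366.3 and 818.8 at ranks 778, 883 and 562, and a mean percentile of 97.53 ± 0.546 (SD, n = 3), the third highest of all members. Vha100-1, known for its role in neurons and placed in the restricted class, had signals of 370.7, 362.5 and 639.1 at ranks 1782, 904 and 917, and a mean percentile of 96.0 ± 1.677 (SD, n = 3).

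Vha100-2 ranked above Vha100-1 in each replicate. Vha100-4, whose gene lies 517 bp from that of Vha100-2, had a single summit, in replicate 1, with a signal of 47.4 at rank 17079. Vha100-3 and Vha100-5 had none, with IDR summits no nearer than 29898 and 50942 bp.

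The proteolipid ring is built from c and c″ subunits. Vha16-1, the main c gene, had signals of 302.2, 231.1 and 411.4 at ranks 2553, 2243 and 1951, with a mean percentile of 92.51 ± 1.003 (SD, n = 3), and a further IDR summit with a signal of 277.3 lay inside the gene, 1688 bp from its other TSS, which had no IDR summit within 500 bp. Vha16-5 had signals of 405.5, 176.7 and 348.9 at ranks 1523, 3473 and 2514, with a mean percentile of 91.66 ± 3.25 (SD, n = 3). These percentiles differed by less than the spread of Vha16-5 over replicates, so the main and the restricted c gene were not told apart by peak strength.

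The remaining c genes were close to or below the end of the lists. Vha16-2 appeared in replicate 2 alone, with a signal of 21.2 at rank 23980, and Vha16-3, whose gene lies 985 bp away, in replicate 3 alone, with a signal of 23.6 at rank 29720. Vha16-4 appeared in none. VhaPPA1-1, the main c″ gene, had signals of 408.5, 327.3 and 457.4 and a mean percentile of 95.23 ± 0.909 (SD, n = 3). Its paralog VhaPPA1-2 had summits in replicates 2 and 3, with signals of 32.0 and 25.9 at ranks 17679 and 27062.

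The d subunit, which couples the rotor stalk to the ring, was the 1 subunit with neither of its genes bound in the IDR list. VhaAC39-1, the main gene, had signals of 66.7, 74.2 and 118.5 at ranks 13133, 8971 and 8247, and VhaAC39-2, the restricted one, had 85.4, 71.1 and 107.2 at ranks 10843, 9287 and 8912. The mean percentiles were 66.28 ± 8.79 and 67.73 ± 3.413 (SD, n = 3 each), a difference within the spread between replicates. Both had summits in every replicate, and their pooled signals of 260.1 and 255.1 lay just under the lowest signal of the IDR list.

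The small membrane subunit e has 4 genes, of which VhaM9.7-b is the widely used one. It had signals of 307.9, 242.7 and 555.4 and a mean percentile of 93.66 ± 2.214 (SD, n = 3). VhaM9.7-a, with 302.1, 259.0 and 359.8, reached 92.46 ± 1.291, and VhaM9.7-c, with 179.3, 140.5 and 196.4, reached 83.23 ± 0.938 (SD, n = 3 each). VhaM9.7-c ranked below both of the others in every replicate, and VhaM9.7-d was in no list.

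Among the accessory proteins, VhaAC45 had signals of 218.5, 226.7 and 262.3 and a mean percentile of 88.75 ± 3.067 (SD, n = 3). The related VhaAC45RP was not in the IDR list, with signals of 40.7 and 24.4 in replicates 1 and 2 and no summit in replicate 3. ATP6AP2, the accessory subunit formerly called VhaM8.9, had signals of 385.5, 323.1 and 377.7 at ranks 1666, 1160 and 2246, and an IDR summit 47 bp upstream of its TSS with a signal of 1098.5.

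Of 4 pairs of paralogs with at most 2052 bp between them, 3 held a bound and an unbound gene, while Vha16-3 and Vha16-2, described above, were both unbound. Vha68-3 starts 178 bp past the end of Vha68-2 on the same strand, yet the strongest of these peaks stood at the Vha68-2 promoter and none within 500 bp of the Vha68-3 TSS. Other IDR summits of that stretch lay 7994, 26326 and 29932 bp from the Vha68-2 TSS, with signals of 284.8, 409.7 and 1341.5, the last being the Vha68-1 peak. VhaPPA1-1 and VhaPPA1-2 are 2052 bp apart with RpS5b between them, and their pooled signals were 1188.4 and 87.4. Vha100-2 and Vha100-4 had a pooled signal of 1774.5 and none.

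**Figure D3:**
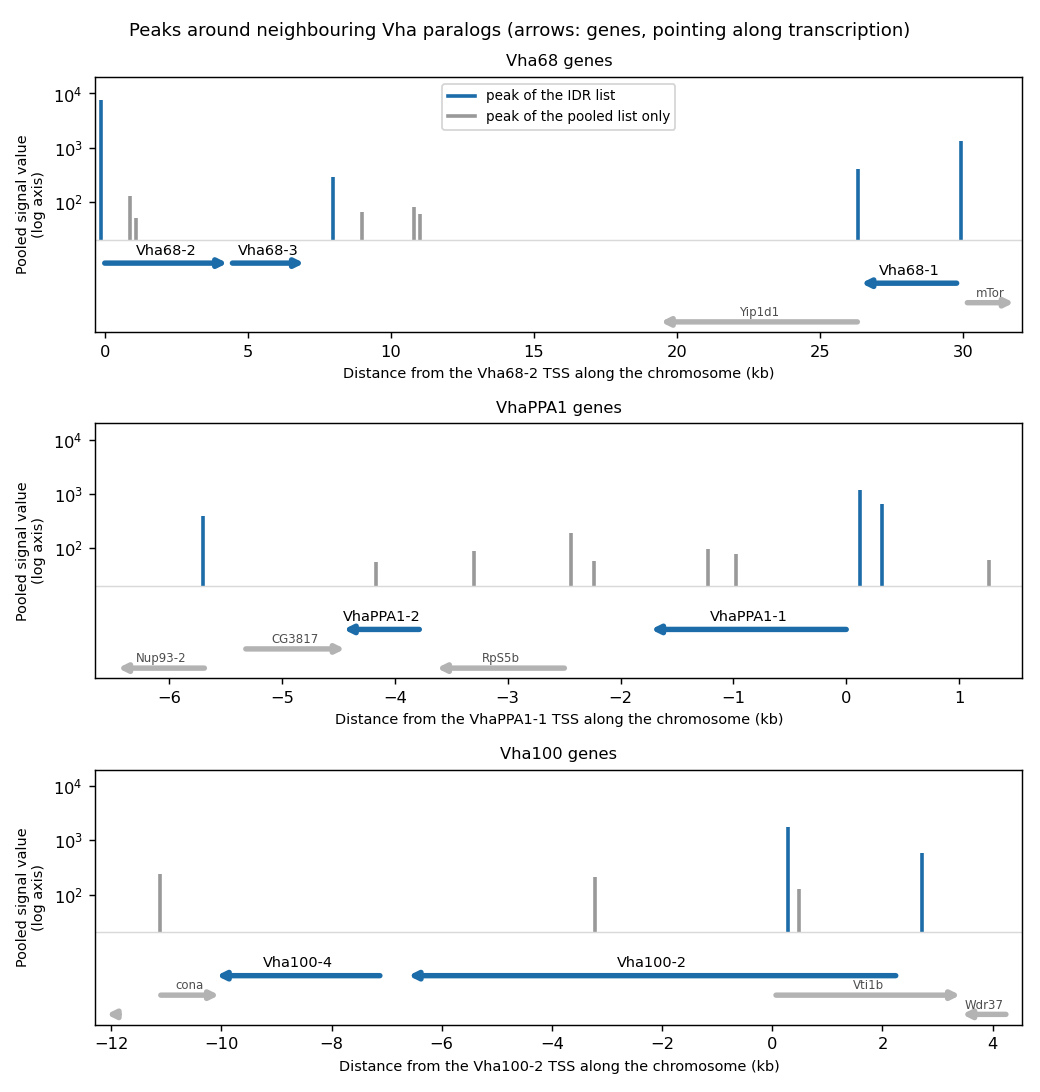
Pooled signal value (log axis) of peaks around neighbouring Vha paralogs, against distance in kb from the TSS of Vha68-2, VhaPPA1-1 or Vha100-2; blue bars are peaks of the IDR list, grey bars peaks of the pooled list only, and arrows are genes pointing along transcription. The tallest bar of the Vha68 panel, 7563.9, stands at the Vha68-2 start, and the IDR bars at VhaPPA1-1 and Vha100-2 have no counterpart at VhaPPA1-2 or Vha100-4.

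Most bound members shared their peak with a neighbouring gene, so the peak cannot be assigned to the pump gene by position alone. At 13 of the 18, another gene had a TSS within 500 bp of the same summit, and at 7 the summit was nearer to that neighbour. The margin at Vha44, which is among the 7, was only 273 against 274 bp. Shared summits were not counted over all bound genes. By a related measure, another TSS within 1000 bp of the gene's own, 13 of the 18 had a close neighbour. Of all 5941 bound protein-coding genes, 4184 had one. The 5 peaks at no other TSS were those of Vha68-2, Vha16-1, VhaPPA1-1, VhaSFD and VhaM9.7-c. All neighbours were divergent, that is transcribed away from the Vha gene, except Hmgs (HMG-CoA synthase), which overlaps the start of Vha44.

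Both bound restricted paralogs were of the shared kind. The Vha100-1 summit lay 118 bp upstream of its TSS and 103 bp upstream of that of dgt6, an augmin subunit gene. The Vha16-5 summit lay 287 bp upstream of its TSS and 15 bp upstream of that of CG12299. When each summit was given to the nearest protein-coding TSS alone, 0 of 13 restricted paralogs and 10 of 14 widely used genes were bound, beside 32.63% of all protein-coding genes.

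The neighbours were genes of varied kinds. The highest Vha100-2 summit lay 279 bp upstream of its own TSS and 212 bp downstream of that of Vti1b, a SNARE gene. Another TSS of Vha100-2 had a separate IDR summit within 500 bp, with a signal of 583.9 at rank 4240. The Vha55 summit lay 51 bp from its TSS and 151 bp from that of Snx3, a sorting nexin gene, and the Vha26 summit 117 bp from its TSS and 187 bp from that of noi, a splicing factor gene. At Vha68-1 the summit was 147 bp upstream of the Vha gene and 226 bp upstream of mTor, the kinase that senses nutrients at the lysosome. The other shared peaks were those of Vha13 with Nup58, Vha14-1 with CG30091, Vha36-1 with CG8187, VhaAC45 with Gnptab, VhaM9.7-a with CG11586 and VhaM9.7-b with COX8.

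Genes with a close neighbour were bound more often throughout the genome, and this moves with the classes. Of all protein-coding genes with another TSS within 1000 bp, 62.42% were bound, against 24.26% of those without. Another TSS lay that near for 9 of 14 widely used genes and 4 of 13 restricted paralogs. Within the crowded genes 9 of 9 widely used and 2 of 4 restricted ones were bound, and within the isolated genes 4 of 5 and 0 of 9. The classes thus differed in the same direction in both settings, with few genes in each, and the part of crowding in the class difference was not tested further.

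Summits lay mostly just upstream of the TSS, as at bound genes in general. The median position was 123.5 bp upstream of the TSS at the 18 bound members, with a range from 295 bp upstream to 274 bp downstream, and 109 bp upstream at all bound genes. The summit was upstream at 16 of 18 members (88.89%, against 89.78% of all bound genes) and within 150 bp of the TSS at 12 (66.67%, against 62.9%). Between the replicates the summit moved over a median range of 29.5 bp.

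**Figure D4:**
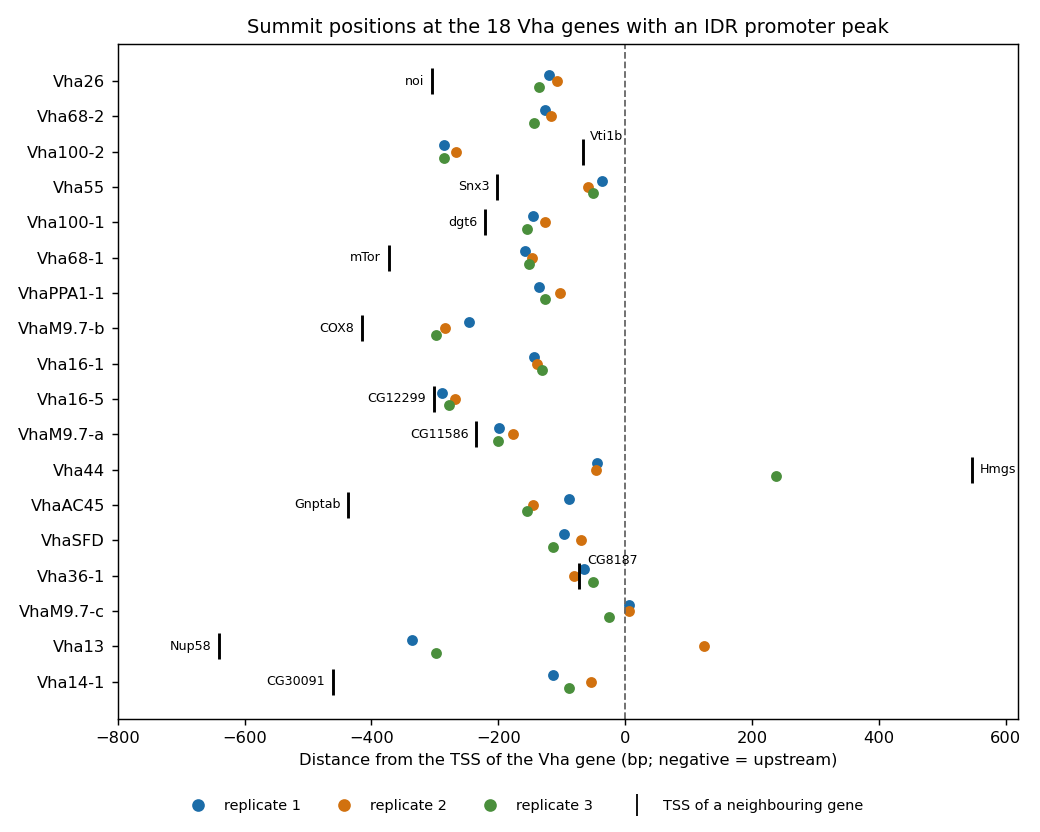
Distance of the promoter summit from the TSS of the Vha gene, in bp with upstream negative, in replicates 1, 2 and 3 at the 18 bound Vha genes, ordered by IDR rank; vertical ticks mark the TSS of a neighbouring gene. The replicates fall close together at most genes, while Vha13 and Vha44 have summits on both sides of the start.

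Core promoter elements known from constitutive genes occurred in the members at counts near the shares over all bound and all unbound genes. In the 300 bases around the TSS, motif 1 occurred at Vha26, Vha68-2 and Vha100-1, DRE at Vha55 and VhaSFD, motif 6 at Vha14-1 and VhaAC45, and ZIPIC at Vha55. None of the 15 unbound members held any of these 4 motifs, which are also rare in unbound genes at large. The overall share was taken at the most upstream TSS of each gene, while a bound gene was searched at the TSS of its peak and an unbound one at its most upstream TSS, so the parts need not add up to the whole. With both strands searched, motif 1 was in 6.05% of promoters, in 13.2% of those of bound genes and in 1.09% of those of unbound genes. The same shares were 9.37%, 18.3% and 2.95% for DRE, 5.27%, 9.26% and 2.54% for motif 6, and 2.22%, 4.49% and 0.712% for ZIPIC.

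Only some of these matches lay near the summit itself. Within 50 bp of the highest IDR summit, motif 1, motif 6 and ZIPIC were each found at 1 of the 18 and DRE at 0. The shares over all IDR summits were 2.55%, 2.57%, 1.09% and 4.38% in that order. In Vha26 and Vha100-1, as printed above, motif 1 starts 2 bases before the TSS and so lies 119 and 120 bp from the summit, whereas in Vha68-2 it lies upstream, 34 bp from the summit. The motif 6 match of Vha14-1 is 11 bp and the ZIPIC match of Vha55 6 bp from the summit. All distances were taken from the middle of the match. ACACTG was the 6-mer most over its flanks at the 100 strongest peaks away from the members, found at 53 of 100 summits and in 6 of 200 flanking windows, and was chosen after the data were seen. It was in the promoters of 10 of 18 bound and 0 of 15 unbound members, beside 18.9% of all promoters, 29.1% of those of bound genes and 12.2% of those of unbound genes. With the whole match within 50 bp of the highest IDR summit it was found at 3 of the 18, those of Vha68-2, Vha14-1 and Vha36-1, beside 8.83% of all IDR summits. A match at VhaM9.7-c was centred 48 bp from the summit and ran past that window. At Vha44 a match started 60 bp upstream of the TSS, near the summits of replicates 1 and 2 but not near the highest IDR summit.

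Over all genes, the other motifs searched differed less between the promoters of bound and unbound genes. TATAAA was in 9 of 18 bound and 8 of 15 unbound members, beside 45.8% of all promoters, and GAGAGAG, the GAF motif, in 0 and 1, beside 5.86%. The CLEAR element, the target of Mitf and of its mammalian relative TFEB at lysosomal genes, was searched as TCACGTGA and TCATGTGA. The former was in 1 of 18 bound members, Vha44, and in 0 of 15 unbound ones. Its share was 0.172% of all promoters, 0.185% of those of bound genes and 0.15% of those of unbound genes. The latter was in 4 of 18 bound members, Vha14-1, VhaAC45, VhaM9.7-b and VhaPPA1-1, and in 0 of 15 unbound ones. Its share was 0.524% of all promoters, 0.572% of those of bound genes and 0.5% of those of unbound genes. The E-box CACGTG, which lies inside the palindromic form, was in Vha44, VhaAC45RP and VhaM9.7-d, beside 4.2%. No member had a whole CLEAR match within 50 bp of its highest IDR summit. At Vha44, however, TCACGTGA started 48 bp upstream of the TSS, where the summits of replicates 1 and 2 lay 44 and 46 bp upstream. The highest IDR summit of Vha44 lay 274 bp downstream.

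A pair of the CLEAR matches is shown with 10 bases on each side, the element in capitals, since both stand downstream of the TSS while the peak stands upstream.
VhaPPA1-1, chr3R:14904010-14904037, minus strand: aaaatgtacgTCATGTGAttgtggattc
VhaM9.7-b, chr3L:21539874-21539901, plus strand: gacatgtccgTCATGTGAtattcgttgc

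The 3 other gene lists were bound at shares between that of all protein-coding genes and that of the widely used Vha genes. Of 11 partner genes, which regulate the pump or act with it in nutrient sensing, 9 were bound (81.82%, 52.3 to 94.86). The highest was RagC-D, a GTPase gene of the lysosomal nutrient sensor, with a pooled signal of 30076.0 at rank 34, followed by Rheb (1295.2) and Arf6 (1100.6). Mitf, the regulator of lysosomal and V-ATPase genes, had a summit 480 bp downstream of a TSS with a signal of 420.6. Rbcn-3B and gig were not bound. The kinase mTor is not among these 11, because the listed symbol Tor was not matched, and it shares the Vha68-1 peak given above.

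Of 28 lysosome genes 19 were bound (67.86%, 49.34 to 82.07), led by the protease gene CtsB (37979.7, rank 22), the HOPS tethering gene car (15081.8, rank 66) and Vps33B (2525.1). The mitochondrial ATP synthase, a rotary enzyme related to the pump, had 11 of 15 genes bound (73.33%, 48.05 to 89.1). Its strongest were ATPsynE (1113.0), ATPsynC (985.1) and ATPsynF (974.7). The 4 unbound ones were ATPsynGL, ATPsynCF6L, ATPsynbetaL and ATPsynepsilonL, whose symbols all end in L. The intervals of all 3 lists overlap that of the widely used Vha genes. Another TSS lay within 1000 bp for 81.82% of partner, 53.57% of lysosome and 73.33% of ATP synthase genes, against 48.07% of all protein-coding genes. Of these crowded genes 8 of 9, 12 of 15 and 9 of 11 were bound, beside 62.42% of all such genes. Of the isolated ones 1 of 2, 7 of 13 and 2 of 4 were bound, beside 24.26%. The part of crowding was not tested, and sharing of these peaks with neighbours was not examined.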

How the data were processed

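ChIP-seq peak lists of CG14710-GFP were used for 3 replicates of 1 group. Per the text files deposited with the samples, each replicate list was derived from that replicate's alignments to dm6 and 1 shared control file, the pooled list from all 3, and the IDR list from these lists. Aligner, peak caller and IDR threshold were not given in the sources used here. Peaks were ranked inside their own list by the signal that the authors deposited, whose scale is unstated. The authors also deposited a −log10 q value, which is capped and was left unused. Read depth is unknown.

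Summits (interval start plus the deposited offset) were set against the RefSeq annotation and sequence of the same assembly, and the highest summit within 500 bp of any TSS of a gene was taken. Motifs were searched from 250 bases upstream of the TSS to 49 downstream, and in windows of 50 bp on each side of a summit. Every Vha gene was named, as was any gene with a TSS within 500 bp of a member's summit and the 3 strongest bound genes of each other list. Further genes of those lists were named after their values were seen. Of the 13 partner symbols 11 were matched, Arno and Tor (annotated as mTor) not being counted, and Tpp1 of the lysosome list was not matched. The members, classes and lists were chosen with earlier results of these data known, so no test was run. The procedure was tested on simulated data. Alternatives were windows of 250 and 1000 bp, the pooled list, the stronger 50% of IDR peaks, each replicate left out or alone, the nearest TSS only, the interval over the TSS, genes with no other TSS within 1000 bp, and other class assignments. Python 3.11.15, numpy 2.4.6, pandas 2.3.3, scipy 1.17.1 and matplotlib 3.10.9 were used.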

Additional observations from a re-analysis of the deposited data

How the results depend on the processing

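The count of bound members was 18, and among the widely used genes 13 of 14 were bound, against 2 of 13 restricted paralogs. The widely used share was above the restricted share under every alternative run. With a window of 250 bp, 14 members were bound, with 10 widely used genes, 1 restricted paralog and 5 V0 genes, beside 37.27% of all protein-coding genes. In the pooled list 4 restricted paralogs had a summit, beside 55.11% of all genes. When a summit counted for the nearest TSS only, 0 restricted and 4 V0 genes were bound (all genes 32.63%), and when the interval had to cover the TSS, 1 restricted and 5 V0 genes (34.7%). Among genes with no other TSS within 1000 bp, 5 of 17 members, 4 of 5 widely used, 0 of 9 restricted, 2 of 5 V1 and 3 of 11 V0 genes were bound (24.26% of all such genes). Counting the neither class as restricted gave 5 of 19 restricted genes bound, and counting it as widely used gave 16 of 20 widely used genes (80.0%).

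Leaving out 1 replicate at a time gave 16 to 17 members, 11 to 12 widely used, 2 restricted, 7 to 8 V1 and 8 V0 genes, while the share of all genes was 36.45%, 35.99% and 38.38% without replicates 1, 2 and 3. Vha13 was lost whichever replicate was left out, and Vha14-1 without replicate 1 or 3. No member became bound in these runs. With the strongest peaks of replicate 2 alone, VhaAC39-1 became bound. With those of replicate 3 alone, both VhaAC39-1 and VhaAC39-2 did, giving 14 of 14 widely used and 3 of 13 restricted genes, beside 40.96% of all genes. The IDR list was made from all 3 replicates, so a replicate left out may still shape these counts. The median percentile of the bound members' peaks, 92.55, ranged from 92.49 to 93.37. With a window of 1000 bp the mean percentile at Vha14-1 was 98.22, against 67.41. No paired analysis was possible because the samples form 1 group. The unknown read depth limits what the absence of a peak can show.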
